A study of Mus musculus with 16 samples.

Results

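The oligoadenylate synthetase family was followed through 16 single-colour arrays of mouse splenic B cells. Its 6 members, Oas1a, Oas1g, Oas2, Oas3, Oasl1 and Oasl2, were taken by gene name from the array's annotation. They are covered by 8 of 55681 probes and are 6 of 34821 gene names. For 5 members, through 6 probes, the signal was well above background on at least 4 of the 16 arrays, the filter that left 22736 genes and 32881 probes for testing. Oas1g did not pass it.

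Each array measured total RNA of B220+ splenic B cells, selected with anti-B220 beads, with 0.2 µg of RNA and a RIN (an RNA integrity number) of 9 given for every sample. 3'RR-deficient mice lack the 3′ regulatory region, an enhancer array downstream of the immunoglobulin heavy chain constant genes. The labels describe the deficient allele as a knockout made on a 129 heavy chain allele and held in a BALBC background, and give BALBC as the strain of the deficient mice and 129 as that of the wild type, so genotype and strain cannot be told apart. The arrays lie on 2 slides, each with 4 arrays per genotype: on slide 2, 3'RR-deficient arrays 1, 2, 3 and 4 and wild-type arrays 1, 2, 3 and 5; on slide 1, 3'RR-deficient arrays 9, 10, 11 and 12 and wild-type arrays 2, 5, 6 and 8. Each genotype has 8 arrays, but the design text names 4 mice of each. Since the labels do not tie arrays to mice, the spread behind every p-value is that between arrays and may in part be technical. The deletion itself was not checked on the arrays.

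Oligoadenylate synthetases are sensors of double-stranded RNA. On binding it, OAS1, OAS2 and OAS3 proteins join ATP into 2′-5′-linked oligoadenylates, a second messenger of the antiviral response. Their genes are classical interferon-stimulated genes: type I interferon acts through its receptor, JAK kinases and a transcription factor complex that includes IRF9, which binds the interferon-stimulated response element in promoters. Mice carry several copies of Oas1. Oasl1 and Oasl2 are OAS-like proteins with ubiquitin-like domains. Mouse Oasl1 is known as an inhibitor of Irf7 translation, and mouse Oasl2 has synthetase activity.

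The probes are 60 bases long and lie in 2 clusters of chromosome 5 in the mm9 coordinates of the files. The files name a gene for each probe but not an exon or untranslated region, and none was assigned here. The first 30 bases of 1 probe per member are printed to show what was hybridised. In the distal cluster, on the minus strand, the Oas2 probe A_55_P2019719 is at chr5:121180343-121180402, the Oas3 probe A_51_P472867 at chr5:121203598-121203657, the Oas1g probe A_55_P1998979 at chr5:121326271-121326330 and the Oas1a probe A_55_P1998943 at chr5:121346735-121346794. The other cluster, on the plus strand, holds the Oasl2 probe A_51_P387123 at chr5:115362168-115362227 and the Oasl1 probe A_55_P2086433 at chr5:115387861-115387920.
Oas1a: tgtccacctgttggaaggttctgtctgaca
Oas1g: ggggcccataggtatgatgaaaataaaagg
Oas2: ctggggactctgcagttggctgttcattta
Oas3: actagacaccctaggaaccagacatctcta
Oasl1: aaggtaggaggggatcaagttcctttcaaa
Oasl2: tgctctagaatggtaccaatccagtatcaa

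Near-identical copies limit what single probes measure. The files list RefSeq transcripts of both Oas1a and Oas1g for the Oas1a probe A_55_P1998943 and for the Oas1g probe A_55_P1998979. A second Oas1a probe, A_55_P1998942 at chr5:121348338-121348397 on the minus strand, lists a transcript of Oas1a alone. The first Oas1a probe also resembles the probe of Oas1f, another Oas1 copy that is not one of the 6 members: without gaps, 41 of 58 overlapping bases are identical, and in the first 30 bases of that overlap 5 differ, shown in capitals.
Oas1a: tgtccacctgttggAaggttctgtcTGaCA
Oas1f: tgtccacctgttggGaggttctgtcCAaTG

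Promoter windows were available from RefSeq (GRCm38.p6) for 5 members, Oas1a, Oas1g, Oas3, Oasl1 and Oasl2. They are shown because Oas1a, Oas3, Oasl1 and Oasl2 were called higher over both slides, with Oas1g, which did not pass the filter, as the near copy of Oas1a. The core of the interferon-stimulated response element, searched as GAAANNGAAA on both strands, was found in the 300-base windows of Oas1a, Oas1g and Oas3, and in 1131 of 32851 such windows of all promoters (3.44%). In Oas1a and Oas1g there are 2 overlapping matches, GAAATGGAAA and GAAACTGAAA. They begin 20 and 14 bases before the start in Oas1a, and 18 and 12 bases before it in Oas1g. In Oas3 the match GAAAACGAAA begins 75 bases before the start. These letters were not in the windows of Oasl1 and Oasl2, nor in that of Oas1f. The 100 bases before the start are given with matches in capitals, in the direction of transcription, for Oas1a (chr5:120907526-120907625, minus strand), Oas1g (chr5:120887614-120887713, minus strand), Oas3 (chr5:120777660-120777759, minus strand), Oasl1 (chr5:114923140-114923239, plus strand) and Oasl2 (chr5:114896834-114896933, plus strand). The longest stretch shared base for base by the 300-base windows of Oas1a and Oas1g is 73 bases.
Oas1a: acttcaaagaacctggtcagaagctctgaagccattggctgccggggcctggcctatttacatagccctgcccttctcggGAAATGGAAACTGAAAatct
Oas1g: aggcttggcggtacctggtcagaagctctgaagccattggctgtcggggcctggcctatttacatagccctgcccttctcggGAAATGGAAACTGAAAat
Oas3: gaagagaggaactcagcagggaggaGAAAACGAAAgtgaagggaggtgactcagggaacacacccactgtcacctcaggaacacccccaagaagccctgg
Oasl1: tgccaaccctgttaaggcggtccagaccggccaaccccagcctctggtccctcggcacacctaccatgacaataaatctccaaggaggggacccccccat
Oasl2: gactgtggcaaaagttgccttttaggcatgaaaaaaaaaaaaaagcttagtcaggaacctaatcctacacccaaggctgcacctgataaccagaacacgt

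Levels are log2 of the processed signal minus the array's own 75th percentile, so 0 is the signal that 75% of probes do not exceed. That percentile was a signal of 596 to 990 on slide 2 and 576 to 851 on slide 1, and 29961 to 34193 probes on slide 2 and 26065 to 29250 on slide 1 were well above background. Arrays of 1 group correlated at 0.981 to 0.997 and arrays of different slides at 0.89 to 0.916, so genotypes were compared within slides. Differences are 3'RR-deficient minus wild type, with limma's standard error (SE) and a p-value adjusted over all 22736 genes, called at an adjusted p under 0.05. The value over both slides is the mean of the 2 within-slide differences. A level cannot separate fewer expressing cells from less RNA per cell. The 10 B cell markers checked, Pax5 and Cd79a among them, were all well above background on every array.

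Over both slides all 5 members that passed the filter were higher in 3'RR-deficient B cells, against 7.64% of all genes called higher, 9.9% called lower and 17.5% called in either direction. Their median difference was 2.34 on the log2 scale, beside -0.03 over all genes. On slide 1 all 5 were called higher (background 9.21%). On slide 2, 4 of 5 were called higher (background 4.29%), with Oasl1 outside the threshold. The deficient arrays lay entirely above the wild-type arrays of their slide for 4 of 5 members on slide 2 (13.9% of all genes did), 5 of 5 on slide 1 (7.38%) and 4 of 5 on both (1.8%). The 6 member probes tested each on its own were all higher over both slides (16.8% of probes were called in either direction). Passing the filter was not independent of being high in deficient cells for Oasl2, so the count describes these 5 and not the family as a whole.

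**Figure D1:**
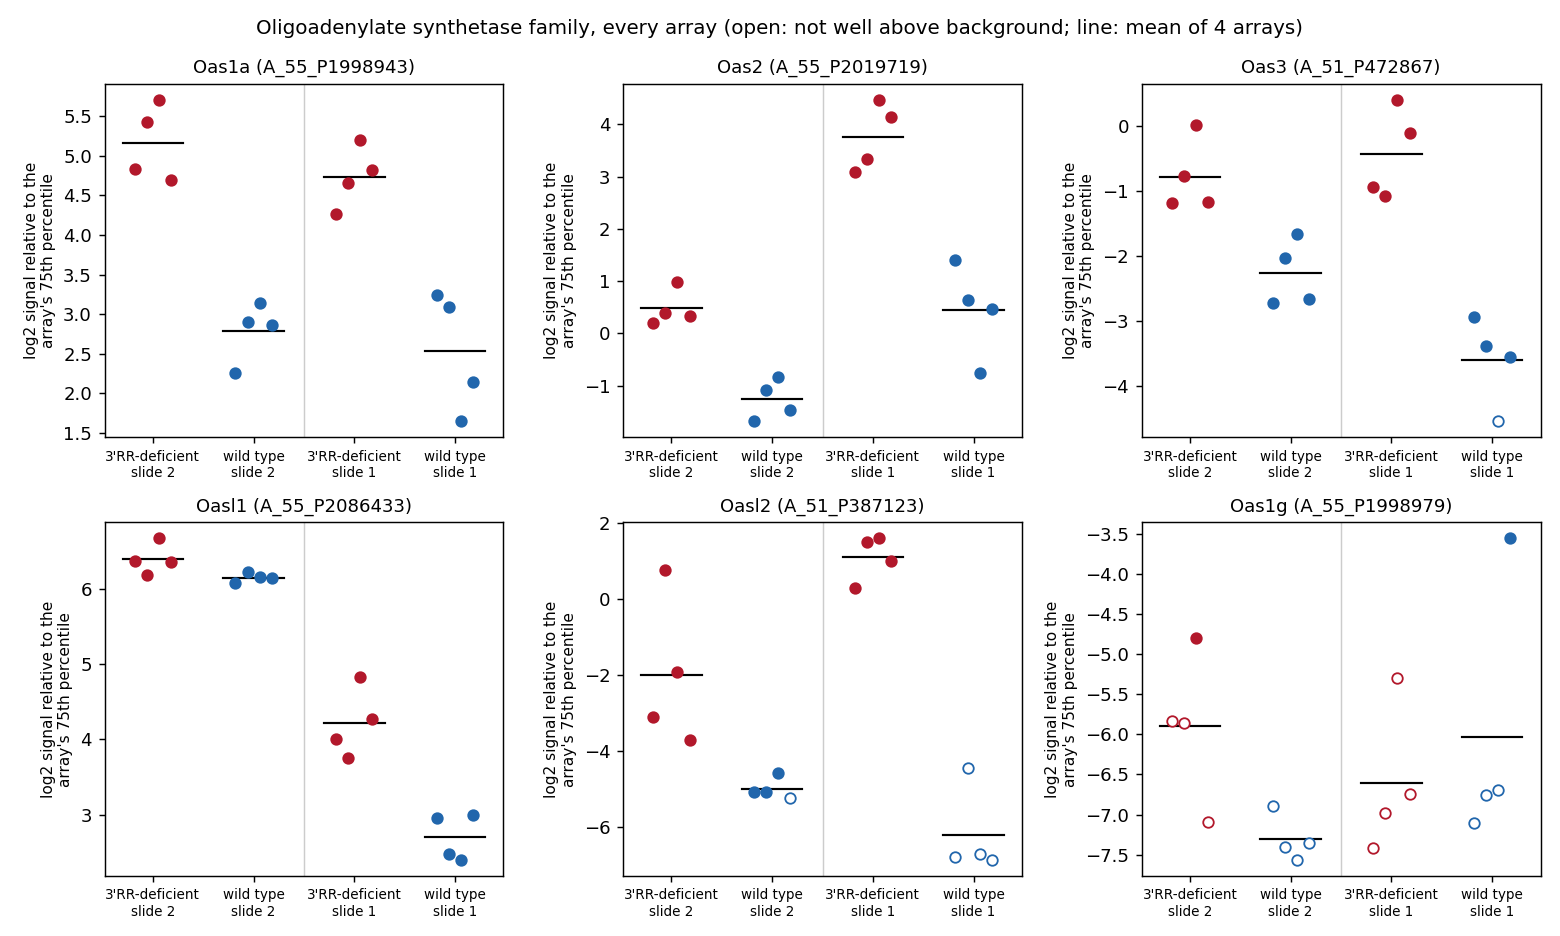
Log2 signal relative to the array's 75th percentile (vertical axis) for the probe of each member, in the groups of genotype and slide (horizontal axis); each point is 1 array, filled where well above background and open where not, and each line is the mean of 4 arrays. On both slides the 3'RR-deficient arrays of Oas1a, Oas2, Oas3 and Oasl2 lie above all wild-type arrays of their slide, while those of Oasl1 on slide 2 overlap and Oas1g is mostly open.

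Among the synthetases proper, Oas1a differed by nearly the same amount on both slides. Its probe A_55_P1998943 read 4.84, 5.42, 5.71 and 4.69 on 3'RR-deficient arrays 1, 2, 3 and 4 of slide 2, against 2.25, 2.90, 3.15 and 2.86 on wild-type arrays 1, 2, 3 and 5. On slide 1 it read 4.26, 4.66, 5.20 and 4.82 on 3'RR-deficient arrays 9, 10, 11 and 12, against 3.25, 3.09, 1.65 and 2.14 on wild-type arrays 2, 5, 6 and 8. The lowest deficient array stood above the highest wild-type array on each slide. Oas1a rose 5.18-fold in deficient cells of slide 2 (log2 difference 2.37, SE 0.35, adjusted p = 0.000669). In those of slide 1 it rose 4.60-fold (2.20, SE 0.35, adjusted p = 0.000807). The second probe, whose listed transcript is of Oas1a alone, rose 5.43-fold on each slide and over both differed by 2.44 (SE 0.23, adjusted p = 6.71e-06). Both Oas1a probes were well above background on all 16 arrays, so the call does not rest on the probe annotated to Oas1g as well.

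Oas2, the synthetase that in mammals joins 2 catalytic-type domains, rose more on slide 1. It read 0.19, 0.40, 0.99 and 0.33 on the 3'RR-deficient arrays of slide 2, against -1.68, -1.08, -0.83 and -1.47 on the wild-type arrays. On slide 1 the 3'RR-deficient arrays read 3.08, 3.34, 4.47 and 4.15, against 1.40, 0.64, -0.76 and 0.47 on the wild-type arrays. The genotypes did not overlap on either slide. The difference was 1.74 on slide 2 (SE 0.41, adjusted p = 0.0167, 3.34-fold) and 3.32 on slide 1 (SE 0.41, adjusted p = 0.000129, 9.98-fold). Array 11, a deficient array of slide 1, was the highest of all 16, and array 1, a wild-type array of slide 2, the lowest.

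Oas3, known for its preference for long double-stranded RNA, was measured at dimmer signals. It read -1.19, -0.76, 0.02 and -1.17 on the 3'RR-deficient arrays of slide 2, against -2.72, -2.02, -1.65 and -2.66 on the wild-type arrays. On slide 1 the 3'RR-deficient arrays read -0.93, -1.07, 0.41 and -0.10, against -2.94, -3.38, -4.54 and -3.55 on the wild-type arrays, of which array 6 was not well above background. Again every deficient array exceeded every wild-type array of its slide. In deficient cells Oas3 rose 2.81-fold on slide 2 (log2 difference 1.49, SE 0.41, adjusted p = 0.0379). The rise on slide 1 was 9.07-fold (3.18, SE 0.41, adjusted p = 0.000188).

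The probes named for Oas1g, which encodes a further Oas1 protein close to Oas1a, were near or under background. The probe A_55_P1998979 was well above background on 2 of 16 arrays, with signals of 33.4 on 3'RR-deficient array 3 of slide 2 and 57.9 on wild-type array 8 of slide 1. It lists a transcript of Oas1a too, yet both Oas1a probes, 1 of which also lists Oas1g, were well above background on all 16 arrays. How well A_55_P1998979 reports either transcript was not tested, so its low signal may not give the level of Oas1g. The probe A_55_P1998977, at chr5:121326151-121326210 on the minus strand, was not well above background on any of the 16 arrays, where its signals lay between 4.58 and 8.59. With the filter on dim probes left out, the difference over both slides was 0.42 (SE 0.50, adjusted p = 0.695), so no difference was detectable at this signal.

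The OAS-like genes gave the smallest and the largest differences of the 5 members. Oasl1 read 6.36, 6.19, 6.67 and 6.36 on the 3'RR-deficient arrays of slide 2, against 6.07, 6.22, 6.16 and 6.14 on the wild-type arrays. On slide 1 the 3'RR-deficient arrays read 4.01, 3.75, 4.83 and 4.27, against 2.96, 2.48, 2.41 and 3.00 on the wild-type arrays. The genotypes overlapped on slide 2 and were apart on slide 1. The difference on slide 2 was 0.24 (SE 0.20, adjusted p = 0.538, 1.18-fold) and did not pass the test, while on slide 1 it was 1.50 (SE 0.20, adjusted p = 0.000253, 2.84-fold). Over both slides Oasl1 was higher by 0.87 (SE 0.14, adjusted p = 0.000959).

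Oasl2 was close to background in wild-type cells and clearly measured in all 8 deficient samples. On slide 2 it read -3.11, 0.77, -1.93 and -3.69 on the 3'RR-deficient arrays, against -5.08, -5.08, -4.58 and -5.23 on the wild-type arrays, 3 of which were well above background. On slide 1 the 3'RR-deficient arrays read 0.29, 1.50, 1.58 and 0.99, against -6.78, -4.45, -6.70 and -6.85 on the wild-type arrays, none of them well above background. The deficient arrays of slide 2 spread widely, array 2 standing far above the others. Set against the lowest signal called well above background on each wild-type array (or the probe's own signal where higher), Oasl2 was at least 49.99-fold higher in deficient cells on slide 1 (adjusted p = 4.59e-05 for the fitted difference and 9.31e-05 with dim arrays at that floor). It was 7.99-fold higher on slide 2 (log2 difference 3.00, SE 0.79, adjusted p = 0.0306). Without deficient array 2 that fold was 4.22 (adjusted p = 0.0481).

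Calls on slide 2 depended on single arrays for Oas2, Oas3 and Oasl2. Of 5 members, 1 was called without deficient array 3 or without wild-type array 1, and 2 were called without wild-type array 2 or 5. Leaving out any of the 4 deficient arrays or wild-type array 1, 2 or 5 cost Oas3 its call (adjusted p at most 0.115). Oas2 lost its call without deficient array 3 (adjusted p = 0.0524) or wild-type array 1 (0.0585). Oasl2 lost its call without deficient array 3 (0.0663) or wild-type array 1 (0.0772), 2 (0.0687), 3 (0.0566) or 5 (0.0679). The differences themselves kept their sign in each case, between 1.57 and 1.88 for Oas2, 1.23 and 1.69 for Oas3, and 2.08 and 3.57 for Oasl2. Oas1a was called on slide 2 whichever array was left out.

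**Figure D2:**
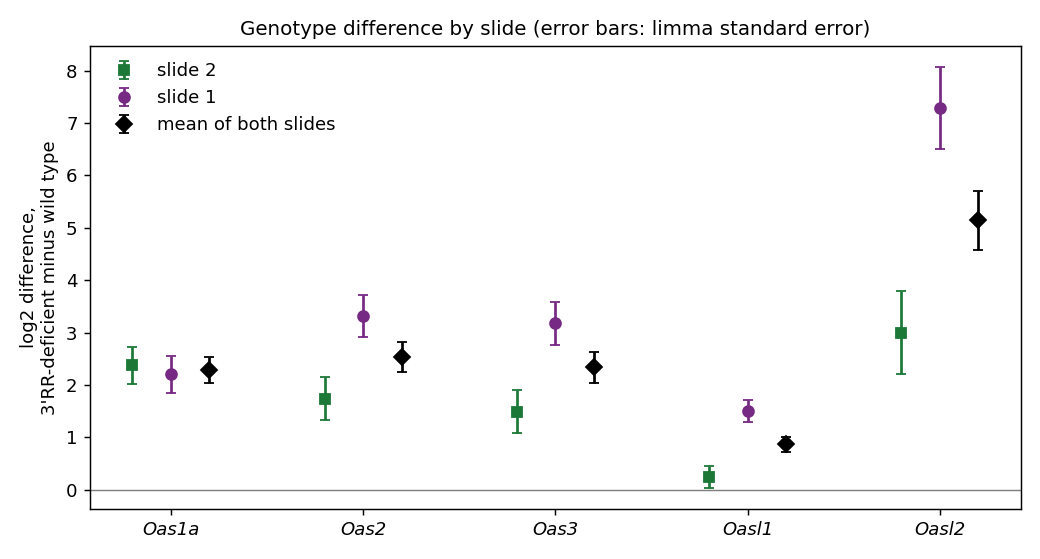
Log2 difference, 3'RR-deficient minus wild type (vertical axis), of each measured member (horizontal axis) on slide 2, on slide 1 and as the mean of both, with limma standard errors as bars. Oas1a has nearly the same difference on both slides, 2.37 and 2.20, whereas the slide 1 difference is the larger for the others; the Oasl2 value of slide 1 is fitted to wild-type signals not above background.

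Whether the genotype difference itself differed between slides was tested as slide 2 minus slide 1. It was smaller on slide 2 for 2 of 5 members, against 5.4% of genes called in that direction and 15.9% in either. Oasl1 changed by -1.26 (SE 0.29, adjusted p = 0.0113) and Oasl2 by -4.28 (SE 1.11, adjusted p = 0.0208). The value for Oasl2 rests on dim wild-type signals: with dim arrays set to their floor it was -2.68 (adjusted p = 0.0721). Oas2 gave -1.58 (SE 0.57, adjusted p = 0.0763), Oas3 -1.69 (SE 0.58, adjusted p = 0.0615) and Oas1a 0.17 (SE 0.49, adjusted p = 0.845). Without wild-type array 2 of slide 1, 4 of 5 were called, Oas2 at -1.90 (adjusted p = 0.0294) and Oas3 at -1.91 (adjusted p = 0.0422) in addition. Oas3 also passed the threshold without deficient array 10 of slide 1 (adjusted p = 0.0463) or deficient array 3 of slide 2 (0.0419).

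Slides were further apart than genotypes for some members, and not in 1 direction. In wild-type cells 3 of 5 members differed between slides, where 73.9% of all genes did: relative to slide 1, slide 2 was higher by 3.44 for Oasl1 (SE 0.20, adjusted p = 1.91e-09) and by 1.34 for Oas3 (SE 0.41, adjusted p = 0.0088), and for Oas2 gave -1.70 (SE 0.41, adjusted p = 0.00164). In 3'RR-deficient cells 3 of 5 also differed (76.1% of all genes), Oasl1 at 2.18 (SE 0.20, adjusted p = 1.99e-07), Oas2 at -3.28 (SE 0.41, adjusted p = 4.19e-06) and Oasl2 at -3.08 (SE 0.79, adjusted p = 0.00263). Oas1a passed in neither genotype, with 0.43 (adjusted p = 0.274) in deficient and 0.26 (adjusted p = 0.515) in wild-type cells. The order of the 4 groups was not the same for all members. For Oas2, deficient cells of slide 2 and wild-type cells of slide 1 differed by 0.04 (SE 0.41, adjusted p = 0.937). For Oasl1 both groups of slide 2 stood above both groups of slide 1, wild-type cells of slide 2 by 1.93 over deficient cells of slide 1 (SE 0.20, adjusted p = 7.41e-07). Oas1a, Oas3 and Oasl2 had both deficient group means above both wild-type group means.

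Levels of several marker lists, of B cells as well as of other cells, differed between slides. Of 10 B cell markers, 8 were called lower on slide 2 than on slide 1 in wild-type cells (73.9% of all genes differed in either direction). In deficient cells 7 were called lower and 2 higher (76.1% of all genes differed in either direction). The markers' median was -1.05 in wild-type cells, beside 0.35 over all genes. In deficient cells it was -1.02, beside 0.40. The summed linear level of 11 macrophage markers, in multiples of the 75th percentile, was 6.53 to 8.52 in deficient and 7.11 to 7.61 in wild-type arrays of slide 2, and 84.7 to 150 in deficient and 64.2 to 160 in wild-type arrays of slide 1. None of these 11 was called between genotypes over both slides by limma (17.5% of all genes were, in either direction), with 1 at an unadjusted p under 0.05. Nor was any of 8 markers of plasmacytoid dendritic cells, known for making type I interferon (1 higher and 2 lower at an unadjusted p under 0.05). The plasmacytoid sums were 208 to 225 in deficient and 193 to 251 in wild-type arrays of slide 2, and 229 to 244 in deficient and 237 to 290 in wild-type arrays of slide 1. A linear sum mostly follows its brightest genes. In wild-type cells 6 of these 8 were called lower on slide 2 than on slide 1 and 1 higher, with a median of -2.83. In deficient cells 5 were called lower and none higher, with a median of -2.36. Of 5 erythroid and platelet markers, the globins Hba-a1 and Hbb-b1 were called higher in deficient cells, with sums of 1.98 to 10.04 in deficient and 0.14 to 0.183 in wild-type arrays of slide 2. On slide 1 those sums were 61.2 to 216 in deficient and 54.9 to 342 in wild-type arrays. Of 9 T cell markers, Cd3g and Lck were called higher, and of 8 neutrophil markers Ly6g. The Cd3g difference was 1.77 on slide 2, where its signal was not well above background on any array, and 0.37 on slide 1. The neutrophil sums were 4.20 to 5.03 in deficient and 3.31 to 5.95 in wild-type arrays of slide 2, and 9.60 to 146 in deficient and 3.80 to 35.6 in wild-type arrays of slide 1. Of 6 markers of conventional dendritic cells, Flt3 was called higher and Cd209a lower. Their sums were 24.3 to 30.9 in deficient and 18.5 to 19.7 in wild-type arrays of slide 2. On slide 1 these sums were 9.58 to 14.5 in deficient and 7.59 to 11.4 in wild-type arrays. Yet 4 of the 6 were called lower on slide 2 than on slide 1 in each genotype, and 2 higher. The medians were -4.68 in wild-type and -5.10 in deficient cells, while Flt3 was higher on slide 2 by 3.18 in each. Between genotypes over both slides, of 10 B cell markers Cd22 was called higher and Cr2 lower. The B cell sums were 711 to 773 in deficient and 594 to 694 in wild-type arrays of slide 2. On slide 1 they were 1033 to 1149 in deficient and 1069 to 1286 in wild-type arrays. None of 6 natural killer cell markers was called by limma (1 at an unadjusted p under 0.05). What part these differences have in the levels of the family was not tested.

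The other Oas1 copies split sharply. Of 6 listed, Oas1h did not pass the filter, and of the 5 that did, only Oas1f rose, by 1.99 over both slides (SE 0.21, adjusted p = 1.79e-05). Its slide 2 difference was 2.20 and its slide 1 difference 1.78. The others had differences of -0.05 (Oas1b), -0.04 (Oas1c), -0.12 (Oas1d) and -0.04 (Oas1e), none of them past the threshold. Because the Oas1f probe and the Oas1a probe A_55_P1998943 share 41 of 58 bases, signal of one transcript on the other's probe cannot be told apart for these 2 probes. The second Oas1a probe, A_55_P1998942, shares 22 of 52 overlapping bases with the Oas1f probe and differed by 2.44 over both slides.

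Of 19 interferon ligands listed, 10 passed the filter. None of these 10 was called higher over both slides (1 at an unadjusted limma p under 0.05), where 7.64% of all genes were. Ifnl3, a type III interferon, fell by 0.33 (SE 0.07, adjusted p = 0.00549), where 9.9% of all genes were called lower. The median over the 10 was -0.02. Of 6 receptor chains, Ifnlr1, a chain of the type III receptor, rose by 0.55 (SE 0.13, adjusted p = 0.0115) and Il10rb, its partner, fell by 0.34 (SE 0.05, adjusted p = 0.000385). With slide as a random block 1 of the 6 was called, higher, so the call of Il10rb was lost. Neither chain of the type I receptor was called, with -0.10 for Ifnar1 and -0.09 for Ifnar2.

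Among interferon regulatory factors, Irf7, which drives interferon genes, rose by 1.00 (SE 0.18, adjusted p = 0.00182). Irf9, a subunit of the complex that binds the response element, rose by 0.48 (SE 0.08). Of 9 negative regulators 4 were called higher over both slides, where 7.64% of all genes were. Usp18, which strips ISG15 from proteins and dampens the type I receptor, rose by 2.24 (SE 0.29). The mean differences were 0.74 (SE 0.15) for Socs1, 0.62 (SE 0.20) for Socs3 and 0.53 (SE 0.13) for Isg15, the ubiquitin-like modifier. On slide 2 only Usp18 was called (4.29% of all genes were called higher). There Socs1 gave -0.22 (adjusted p = 0.615), against 1.69 on slide 1. Socs3 gave 0.23 (adjusted p = 0.704) and Isg15 0.26 (0.458) on slide 2. With slide as an additive block 2 of these 9 were called, and as a random block 1. Of 13 other sensors and adaptors for RNA and DNA 6 were called higher over both slides (7.64% of all genes were) and none lower. With slide as a random block 3 of the 13 were called. On slide 1, 6 were called higher (9.21% of all genes) and 1 lower, and on slide 2, 1 higher (4.29%). Over both slides Zbp1 led with 0.86 (SE 0.12), followed by Dhx58 with 0.72 (SE 0.11), the kinase gene Eif2ak2 with 0.70 (SE 0.16) and Ifih1 with 0.54 (SE 0.15). None of these named genes was called on slide 2. There Zbp1 gave 0.38 (adjusted p = 0.193), Dhx58 0.38 (0.172), Eif2ak2 0.03 (0.964) and Ifih1 0.19 (0.669).

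Interferon-stimulated effectors rose in number but mostly by less than the median of the 5 measured members. Of 30 listed, 23 were called higher and none lower over both slides, where 7.64% of all genes were called higher and 9.9% lower. Their median was 0.74, beside -0.03 over all genes. Ifi44l rose by 2.78 (SE 0.41), Ifi44 by 2.57 (SE 0.40), Rtp4 by 1.46 (SE 0.20) and Igtp, an interferon-inducible GTPase, by 1.28 (SE 0.15). On slide 2, 10 of the 30 were called higher (4.29% of all genes were) and on slide 1, 22 (9.21%). All these lists were chosen with earlier results of these arrays known, so they are not independent evidence of a direction.

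**Figure D3:**
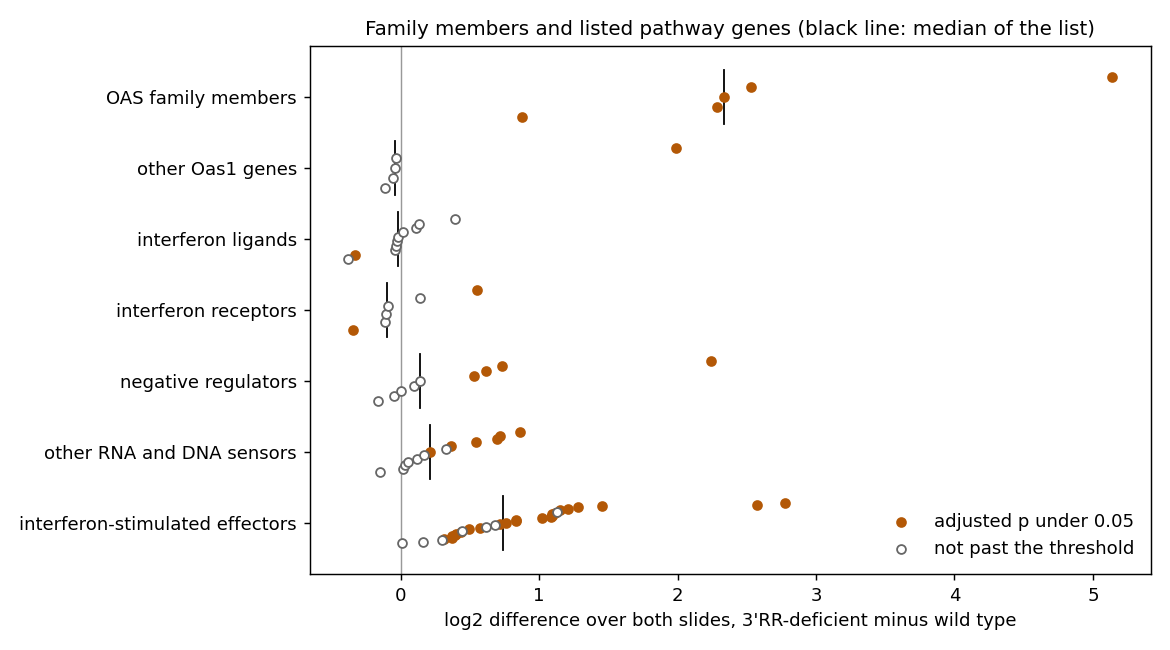
Log2 difference over both slides, 3'RR-deficient minus wild type (horizontal axis), for every measured gene of each list shown (rows); filled points passed an adjusted p under 0.05, open points did not, and black lines are list medians. The median of the 5 measured members, 2.34, lies to the right of every other list's, the next being 0.74 for the interferon-stimulated effectors. The other Oas1 genes were drawn as a list of their own, with a median of -0.04.

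Likeness was measured as the root mean square difference of log2 levels over the 16 arrays, after each gene was centred on its own mean on each slide. Levels were not scaled, so the measure also follows the size of each genotype difference, and for Oasl2 the dim wild-type signals. Among members, Oas2 and Oas3 were closest at 0.20, and Oasl1 and Oasl2 farthest at 2.52. Among all other genes, Oas1a was nearest to Oas1f (0.20), Usp18 (0.41) and Ccl27a (0.44). Oas2 was nearest to Usp18 (0.45), Gas5 (0.54) and Gm3219 (0.58), and Oas3 to Usp18 (0.40), Gm3219 (0.54) and Ifi44 (0.54). For Oasl1 the nearest were Ifit2 (0.20), a long non-coding RNA probe named only by position (0.21) and Eif2ak2 (0.21). Oasl2 had no close match: its nearest were Sema5a (1.03), a non-coding RNA probe named by position (1.11) and the unnamed probe A_55_P2074241 (1.30). Usp18 stood among the nearest 3 for each of the synthetases proper and for neither OAS-like gene. The measure is a description over arrays that share slide and genotype.

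Of 62 genes measured around the family, 6 were called over both slides, where 17.5% of all genes were called in either direction. Within 500 kb of a member probe, 31 other genes were measured at the Oas cluster, of which Oas1f was called higher over both slides and none lower. C78228, whose probe lies between those of Oas2 and Oas3, gave -0.08 (adjusted p = 0.623). The 4 nearest on the outer side of Oas2 (Dtx1, Rasal1, Ccdc42b and Ddx54) and of Oas1a (Oas1d, Ptpn11, AK141707 and Rpl6) had differences between -0.13 and 0.04. At the Oasl cluster 31 were measured, with Gltp called higher by 0.25 and Mvk (-0.31), Fam222a (-0.39), Pop5 (-0.22) and Triap1 (-0.27) called lower. The 4 nearest on each outer side of that cluster had differences between -0.32 and 0.24, none called. On slide 1 alone 2 of these 31 were called higher (9.21% of all genes were) and 9 lower, for which the share of all genes is not given here. On slide 2 limma called none (1 at an unadjusted p under 0.05), where 4.29% of all genes were called higher. The difference between slides was called for 6 of these 31 (15.9% of all genes in either direction), each with the more positive genotype difference on slide 2. Without deficient array 2 or without deficient array 4 of slide 2, 3 of the 62 neighbours were called in place of 6.

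**Figure D4:**
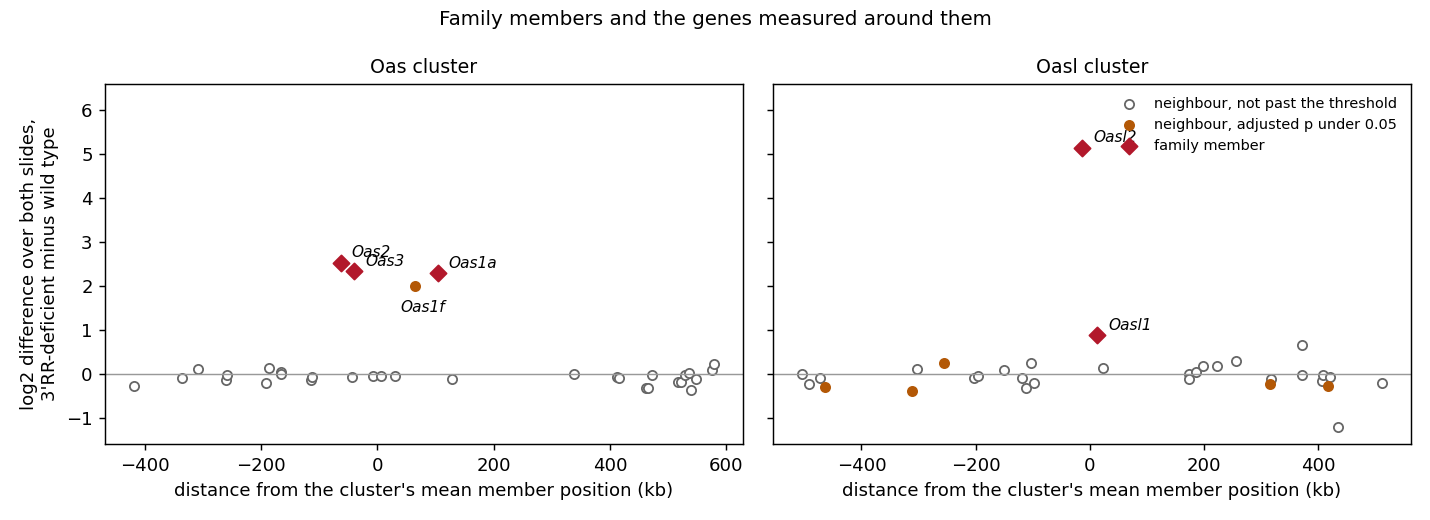
Log2 difference over both slides, 3'RR-deficient minus wild type (vertical axis), against distance in kb from the mean position of the measured members (horizontal axis), for the Oas and Oasl clusters; diamonds are family members, filled circles neighbours past an adjusted p of 0.05 and open circles neighbours that did not pass. Members and Oas1f stand at 0.87 or more, and every other neighbour lies below 0.7.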

How the data were processed

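RNA from 16 samples was hybridised to 1-colour (Cy3) Agilent arrays. Per the file headers, Feature Extraction 10.7.3.1 made the deposited intensity values: a background-corrected processed signal, a mean signal and a background median per spot, with probe names and mm9 coordinates. The authors also deposited a table of log2 values, whose scale is centred near 6.49 to 6.50 on slide 2 and 5.58 to 5.60 on slide 1 (column medians). Each of its 16 columns ranked probes most like its own array. Its normalization is not given in the sources used here. limma is named in the submitters' processing notes of 8 samples, without a version.

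Control spots were left out and spots of 1 probe averaged. Log2 processed signals were centred on each array's 75th percentile. Probes well above background on at least 4 arrays were kept, the brightest probe represented a gene, and gene names were those of the slide 2 annotation (2201 spots are named otherwise on slide 1). A mean was fitted for each of 4 groups with limma 3.58.1 (R 4.3.3), and p-values were adjusted by Benjamini-Hochberg over all 22736 genes. No member spot was flagged or saturated. On simulated data of the same size the fit was tested for recovery of known changes.

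Alternatives were normexp background, median or quantile scaling, the deposited log2 table, filters, a floor for dim arrays, probe averaging, slide as additive or random block, slides fitted alone, array weights, a replicate block and leaving out each array. Some results are not reported here. The members and gene lists were chosen with earlier results of these data known. Every member is named with its probes. From a pathway list, up to 4 called genes are named, by size of their mean difference, or the top 2 where none was called; of neighbours, the 4 nearest on each outer side; of likeness, the nearest 3. Exceptions named after their values were seen are Ifnar1, Ifnar2, the uncalled Oas1 copies, C78228, the called neighbours and the called cell markers.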

Additional observations from a re-analysis of the deposited data

Results flagged for a closer look

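Oasl1 differed less between genotypes on slide 2 than on slide 1, by -1.26 on the log2 scale (adjusted p = 0.0113 in limma's test of the difference). The same test gave -4.28 for Oasl2 (adjusted p = 0.0208), where the wild-type arrays of slide 1 were not well above background. With dim arrays at their floor it was -2.68 (adjusted p = 0.0721), and the call was lost. Single arrays stood apart in 2 of 32 groups of 4 tested, where chance flags about 1 in 20. Wild-type array 5 of slide 1 was apart for Oasl2, its gap to the nearest array being 0.937 of the group's range, at a signal of 26.3 that was not well above background. Wild-type array 8 of slide 1 was apart for the Oas1g probe A_55_P1998979, with a gap of 0.883 of the range and a signal of 57.9.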

How the results depend on the processing

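Of 300 member values under 13 alternatives (leaving out arrays aside), 287 kept their direction and their side of the threshold; over both slides and on slide 1 every measured member kept its call under each alternative run and without each array. On slide 2, Oasl2 lost its call with normexp (1.75, adjusted p = 0.0544), in the deposited table (1.93, 0.0737) and with slides fitted alone (3.00, 0.0609), and Oas3 without the filter on dim probes (1.49, 0.0614). The difference between slides was called for 1 member at the floor and 4 with array weights, and passed for Oas2 with normexp (-1.64, adjusted p = 0.0393). Values of Oas1a between slides turned sign: -0.27 (difference between slides) and -0.13 (deficient cells) with quantile scaling, -0.12 (wild-type cells) with median scaling, and -0.0659, -0.014, -0.00895, -0.00754 and -0.035 without single arrays (ranges over all left-out arrays reached 0.47 for the difference between slides and 0.50 for wild-type cells). None of these Oas1a values passed the threshold, and at the floor Oasl2 gave -0.40 between wild-type slides. With the replicate number as a block, a pairing that the correlations of same-numbered arrays on slide 2 (0.0114, 0.122 and 0.0689) did not bear out, Oas3 gave 0.94 between wild-type slides (adjusted p = 0.109) and no other member call changed. All genes called numbered 2206 with slide as a random block (969 higher and 1237 lower), against 3987 in the fit reported. Neighbours called, 6 at first, were 2 with median scaling, an additive or a random block, 3 without the filter and 10 with array weights. Leaving out 1 array at a time gave 1 to 4 members on slide 2, 2 to 4 for the difference between slides and 3 to 7 neighbours; the cause was not tested. Signal over background limits Oas1g and wild-type Oasl2, and 4 arrays a group limit all values.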
